A study of Mus musculus with 16 samples.

Results

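A set of 10 immediate early genes was followed in 16 libraries of total RNA from mouse embryonic stem cells: Egr1, Egr2, Egr3, Fos, Fosb, Fosl1, Jun, Junb, Ier2 and Ier3. They were taken by symbol from the 55291 genes of the authors' table of normalised counts. All 10 had a mean of at least 10 normalised counts over the libraries and were tested together with the other genes at that level, 17757 in all. The study asked how changes in CTCF, the zinc finger protein that anchors chromatin loops, affect the exit from pluripotency. The parent cells, E14Tg2a of the strain 129/Ola, carry endogenous CTCF fused to a degron that auxin activates, and a transgene under doxycycline control supplies CTCF instead. Doxycycline at 1 µg/ml and the auxin analogue indole-3-acetic acid at 500 µM were given to every culture, for 2 days per the labels, so the endogenous protein was targeted in mutant and wild-type (WT) lines alike. The groups were R342C without LIF, R342C in LIF, K365T without LIF, K365T in LIF, Q418R without LIF, Q418R in LIF, WT without LIF and WT in LIF, with 2 libraries each. R342C, K365T and Q418R name the amino acid change in the transgene. The LIF medium held leukemia inhibitory factor (LIF), the GSK3 inhibitor CHIR99021 at 3 µM and the MEK inhibitor PD0325901 at 1 µM, in serum. The medium called no LIF here lacked all 3 additions for 3 days, so the effects of the 3 cannot be told apart. With 1 line per genotype, the genotype and the line cannot be told apart. The labels do not say that the 2 libraries of a group came from separate cultures, so the p-values measure the spread between libraries, which may be technical.

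Immediate early genes are transcribed within minutes of a signal, without new protein synthesis, and their mRNAs are short-lived. Growth factors act on many of them through the kinases MEK and ERK, whose target ELK1 sits with serum response factor (SRF) on a DNA motif named the CArG box. The products are themselves mostly transcription factors: EGR proteins bind GC-rich sites, and FOS and JUN family proteins pair as the AP-1 factor. In naive embryonic stem cells MEK and ERK activity promotes exit from pluripotency, and MEK inhibitors are used in culture media to hold it back.

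Promoter sequence was at hand for 6 of the 10 members (Egr2, Fos, Fosb, Jun, Junb and Ier3) in RefSeq windows of build GRCm38.p6, from 250 bases before to 50 after a start site. The windows were searched on both strands for the CArG box, for TGACTCA (bound by AP-1), TGACGTCA (bound by CREB and ATF factors), CCGGAAGT (bound by ETS factors) and GCGGGGGCG and GCGTGGGCG (both bound by EGR proteins). Egr2 and Fosb are printed because they were the members with a match, and because Egr2 varied most between replicate libraries after Egr1 and Fosb had the largest difference between media. The 250 bases before the start site are given 5′ to 3′ on the gene's strand, at chr10:67537619-67537868 on the plus strand for Egr2 and chr7:19310046-19310295 on the minus strand for Fosb. Capitals mark the CArG box in Egr2 and GCGGGGGCG in Fosb.
Egr2: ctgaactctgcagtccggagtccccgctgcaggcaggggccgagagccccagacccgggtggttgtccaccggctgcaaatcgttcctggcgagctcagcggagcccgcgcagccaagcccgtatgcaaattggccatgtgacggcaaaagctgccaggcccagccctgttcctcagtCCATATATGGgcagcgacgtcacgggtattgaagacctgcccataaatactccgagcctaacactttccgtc
Fosb: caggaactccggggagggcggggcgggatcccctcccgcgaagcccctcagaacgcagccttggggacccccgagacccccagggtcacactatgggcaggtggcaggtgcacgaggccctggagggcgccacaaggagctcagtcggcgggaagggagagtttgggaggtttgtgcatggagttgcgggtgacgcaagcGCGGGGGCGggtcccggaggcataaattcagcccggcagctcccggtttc
The capitals lie at -72 to -63 from the start site in Egr2 and at -50 to -42 in Fosb. Another Egr2 start site, in the window at chr10:67537316-67537615, had a CArG box of other letters, CCTTTTTTGG, at the same distance. The CArG box was present in 1.63% of all 32851 windows, GCGGGGGCG in 2.91%, TGACTCA in 5.2%, CCGGAAGT in 3.89%, TGACGTCA in 1.79% and GCGTGGGCG in 0.612%. A match describes the letters in this window and does not show that a factor binds there. A missing match does not show that a gene lacks the site, since bases outside the window were not searched.

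Each library held 19721363 to 31935381 reads, recovered as whole numbers from the normalised counts. The 10 pluripotency markers checked, Pou5f1 and Nanog among them, were detected in every library, the lowest being Utf1 at 305 normalised counts. Structural RNAs took 5.39% of counts in WT without LIF replicate 2 and 2.2% to 4.25% in the other 15 libraries, of which WT in LIF replicate 2 was the highest. Differences of the 10 members that passed the main test and hold these WT libraries are also given without them. Spreads between replicates, their ranks and the correlations are given with all libraries, as are genes outside the set. Sums of endoderm, neuroectoderm and fibroblast markers differed between the media, while those of mesoderm markers overlapped. Over 10 genes, endoderm markers lay between 1266 and 2572 normalised counts in the libraries without LIF and between 363 and 616 in LIF, and 8 neuroectoderm markers between 4327 and 6333 without LIF and between 2211 and 3233 in LIF. Fibroblast and feeder markers summed to 1620.2 to 3164 counts without LIF and 1144 to 1582 in LIF. Lum was at 0 in both libraries of all 4 no LIF groups, and Dcn in both libraries of the K365T, Q418R and WT groups in LIF. These zeros do not stand for the list: Dcn averaged 52.5 counts without LIF, and most of the markers tested were higher there, as given below. Mesoderm markers summed to 241 to 636 counts without LIF and 423 to 580 in LIF. Past the test over the 4 lines were 6 endoderm genes higher and 0 lower of 8 tested, 5 and 1 of 8 for neuroectoderm, 6 and 2 of 8 for fibroblasts and 3 and 3 of 7 for mesoderm. The part these cells play in the values below was not tested, and in bulk RNA a change in the number of cells of a type and a change in RNA per cell cannot be told apart.

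Without LIF, set against LIF over the 4 lines, Fosb, Egr3, Fosl1, Jun and Junb were higher and Ier2 was lower, while Egr1, Egr2, Fos and Ier3 did not pass the test. That is 6 of 10 members at an adjusted p under 0.05 by limma, 5 higher and 1 lower. Of all 17757 genes, 70.7% passed in this comparison, 34.6% higher and 36.0% lower, so that 6 of 10 does not exceed the background. Without WT in LIF replicate 2 the same comparison called 6 members, and without WT no LIF replicate 2 it called 5, Ier2 being the one lost (adjusted p = 0.0785). Without WT in LIF replicate 2 the log2 difference was 4.44 for Fosb, 2.22 for Egr3, 1.96 for Fosl1, 0.80 for Jun, 0.56 for Junb and -0.53 for Ier2. Without WT no LIF replicate 2 these were 4.26, 2.19, 2.13, 0.89, 0.75 and -0.37. With all libraries the median log2 difference was 0.73 over the members and -0.01 over all genes tested. The members with the largest rises were low in LIF. In TPM, a level per transcript length that lets genes be compared, Egr3 had a median of 1.36 over the 8 libraries without LIF and 0.18 over the 8 in LIF, Fosl1 3.48 and 0.65, and Fosb 33.1 and 0.96. Ier2 was the most abundant member in both media, with a median of 98.4 TPM without LIF and 118 TPM in LIF. Egr1 (55.6 TPM without LIF, 66.2 TPM in LIF), Fos (73.6 and 44.4), Jun (36.8 and 17.0) and Junb (33.5 and 18.5) formed the middle of the order, and Egr2 (2.31 and 2.50) and Ier3 (8.47 and 7.21) were low.

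**Figure D1:**
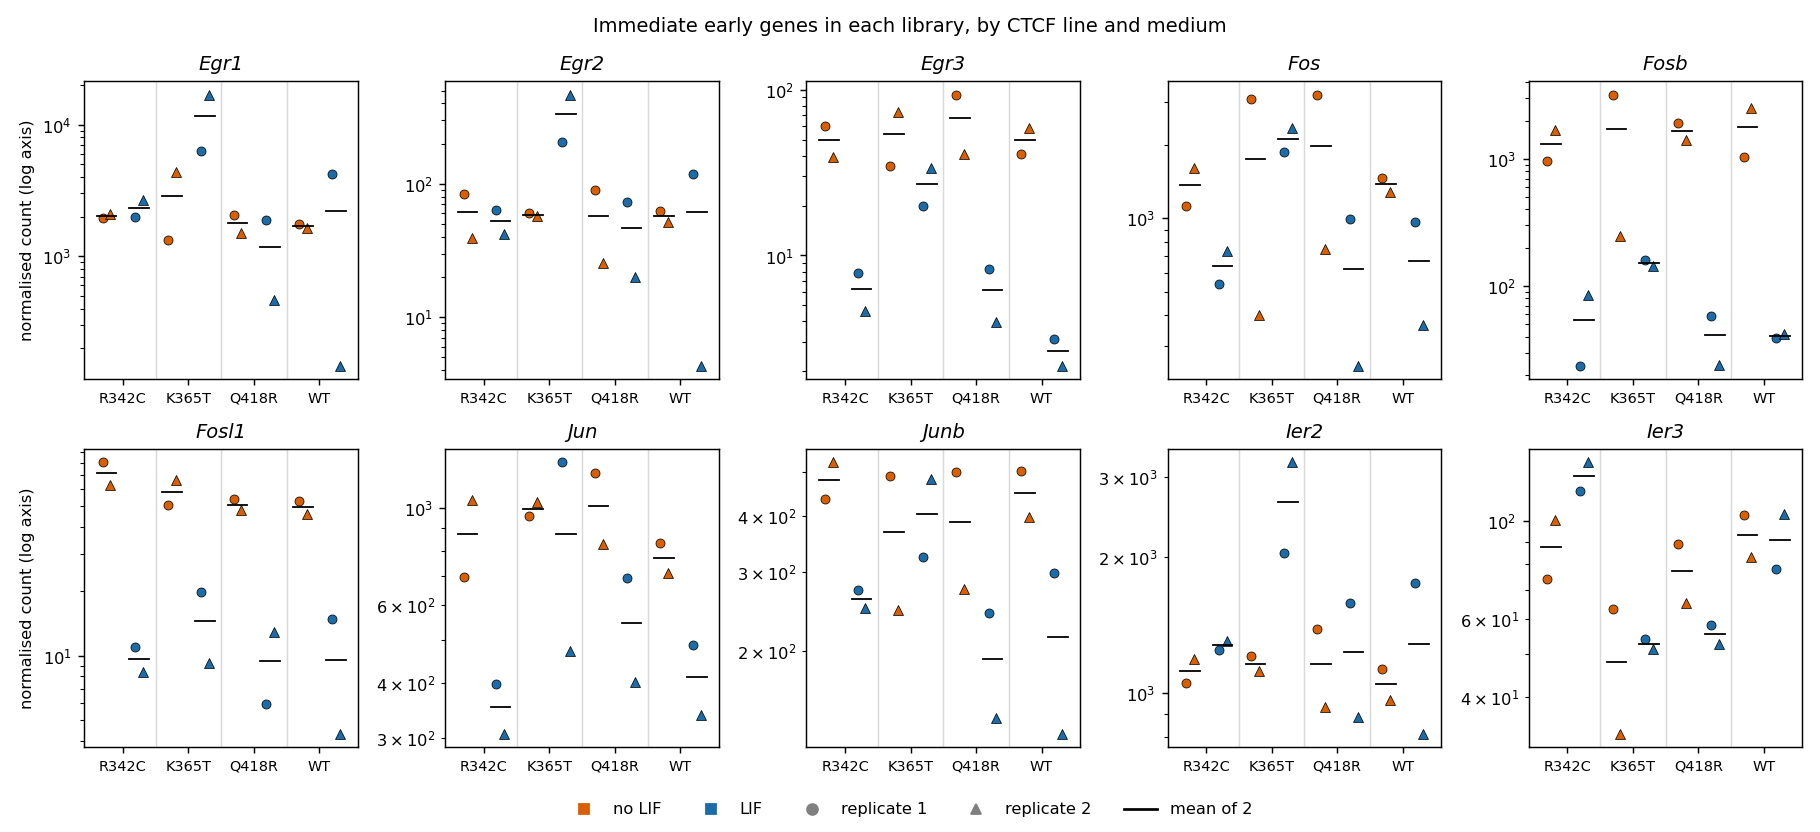
Normalised counts (log axes, 1 panel per gene) of the 10 genes in each library, by line and, within a line, no LIF left of LIF; circles and triangles are replicates 1 and 2 and the bar is their mean. Egr3, Fosb and Fosl1 are higher in every library without LIF than in any library in LIF, while Egr1 in LIF runs from 147 to 16898.

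The EGR genes encode zinc finger transcription factors that bind closely similar GC-rich sites. Egr3 (chr14:70077203-70082614 on mm10, plus strand; positions below are on the same build) had 60.3 and 39.3 normalised counts in R342C without LIF, 34.8 and 72.9 in K365T, 93.4 and 40.7 in Q418R and 41.2 and 58.4 in WT. In LIF it had 7.87 and 4.65 counts in R342C, 19.9 and 33.9 in K365T, 8.34 and 3.98 in Q418R and 3.11 and 2.16 in WT. The 8 libraries without LIF did not overlap the 8 in LIF, with 34.8 as the lowest value without LIF and 33.9 as the highest in LIF, both from K365T. Egr3 rose by 2.24 ± 0.22 on the log2 scale (SE; adjusted p = 4.04e-07, limma), and by 2.88 with edgeR on the recovered reads. With 1 instead of 4 counts added before the logarithm the rise was 2.68; the WT libraries in LIF held only 4 and 2 reads. By line it rose in R342C (2.38), Q418R (2.73) and WT (3.00), and in K365T the estimate was 0.86 ± 0.45 (adjusted p = 0.138 by limma, 0.0381 with same-numbered libraries paired within the line). With 1 library left out the K365T estimate ran from 0.37 (adjusted p = 0.614) to 1.36 (0.0481). The WT rise was 2.90 without WT in LIF replicate 2 and 2.77 without WT no LIF replicate 2.

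Egr1 (chr18:34859823-34864984, plus strand), the best known early response gene of this family, did not pass the test between media in any line or over the 4 lines. Without LIF its counts were 1948 and 2080 in R342C, 1334 and 4380 in K365T, 2043 and 1510 in Q418R and 1768 and 1637 in WT. In LIF they were 1974 and 2660 in R342C, 6319 and 16898 in K365T, 1898 and 463 in Q418R and 4235 and 147 in WT. WT in LIF replicate 2 lay below all 8 libraries without LIF, and replicate 1 of the same group lay above all of them except K365T replicate 2. The lowest and the highest library differed 3.28 times without LIF and 115 times in LIF. Both K365T libraries in LIF were above the other 14. The next group means in order were 2857 in K365T without LIF, 2317 in R342C in LIF, 2191 in WT in LIF, 2014 in R342C without LIF, 1777 in Q418R without LIF, 1703 in WT without LIF and 1181 in Q418R in LIF, and the pair of each of these 7 groups overlapped that of its neighbour. Over the 4 lines the difference between media was -0.07 ± 0.54 (log2, SE; adjusted p = 0.913, limma).

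Egr2 (chr10:67535475-67542188, plus strand), known from hindbrain patterning and myelination, had the same highest and the same lowest library as Egr1. It had 84.4 and 39.3 counts in R342C without LIF, 60.1 and 57.0 in K365T, 89.0 and 25.5 in Q418R and 62.2 and 51.6 in WT. In LIF it had 63.7 and 41.9 counts in R342C, 204 and 466 in K365T, 72.7 and 19.9 in Q418R and 118 and 4.32 in WT. The lowest and the highest library differed 3.5 times without LIF and 108 times in LIF. In K365T the log2 difference between no LIF and LIF was -2.32 ± 0.94 for Egr2 (SE; adjusted p = 0.0569, limma) and -2.09 ± 1.08 for Egr1 (adjusted p = 0.132). With same-numbered libraries paired within the line, the adjusted p was 0.00724 for Egr2 and 0.0318 for Egr1. In WT the sign of both depends on which LIF library is used: the log2 difference of Egr1 was 1.09 with both WT libraries in LIF (adjusted p = 0.428), -1.31 without replicate 2 (0.184) and 3.5 without replicate 1 (0.00221). That of Egr2 was 0.93 (adjusted p = 0.436), -1.0 (0.313) and 2.87 (0.00831).

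Of the FOS family, whose products pair with JUN proteins, Fosb had the largest change of the 10 members. Fosb (chr7:19302696-19310051, minus strand) had 955 and 1686 normalised counts in R342C without LIF, 3202 and 247 in K365T, 1929 and 1396 in Q418R and 1028 and 2520 in WT. In LIF it had 23.6 and 84.7 counts in R342C, 160 and 144 in K365T, 58.4 and 23.9 in Q418R and 38.9 and 42.1 in WT. The 2 media did not overlap over the 16 libraries, and K365T without LIF replicate 2 was the closest to its LIF counterparts. Fosb rose by 4.42 ± 0.43 (log2, SE; adjusted p = 2.89e-07, limma), and by 4.69 in R342C, 2.53 in K365T, 5.30 in Q418R and 5.18 in WT (5.23 without WT in LIF replicate 2 and 4.54 without WT no LIF replicate 2). The K365T value rests on 1 library, since without replicate 1 of the no LIF pair it was 0.69 (adjusted p = 0.421) and without replicate 2 it was 4.36 (adjusted p = 9.22e-05); leaving out either K365T library in LIF (0.0813 and 0.102), testing without a filter (0.0564) and fitting these 4 libraries alone (0.0765) also ended the call.

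Fosl1 (chr19:5447547-5455946, plus strand), which encodes the FOS relative FRA-1, rose in every line. It had 80.1 and 62.6 counts in R342C without LIF, 50.6 and 66.1 in K365T, 53.9 and 47.9 in Q418R and 52.6 and 46.0 in WT, against 11 and 8.38 in R342C in LIF, 19.9 and 9.24 in K365T, 5.96 and 12.9 in Q418R and 14.8 and 4.32 in WT. The media did not overlap, and the log2 rise of 2.11 ± 0.21 (SE; adjusted p = 3.35e-07, limma) was 2.46 in R342C, 1.80 in K365T, 2.08 in Q418R and 2.09 in WT. The WT rise was 1.502 without WT in LIF replicate 2 (adjusted p = 0.0164) and 2.18 without WT no LIF replicate 2 (0.00439). Egr3, Fosb and Fosl1 were thus the 3 members of 10 whose libraries without LIF were all above those in LIF, where 15.8% of all tested genes were. Fosl1 overlaps Ccdc85b on the opposite strand over 2767 bp, and the use of strand in counting is not stated. Ccdc85b itself averaged 305 counts without LIF and 111 in LIF (log2 1.39, adjusted p = 9.62e-07), so reads of the pair cannot be told apart and the size of the Fosl1 rise is uncertain.

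Fos (chr12:85473890-85477273, plus strand), the founding member of the family, was high in both media and uneven. It had 1123 and 1612 counts in R342C without LIF, 3093 and 402 in K365T, 3215 and 746 in Q418R and 1469 and 1287 in WT, against 540 and 733 in R342C in LIF, 1877 and 2344 in K365T, 991 and 248.9 in Q418R and 968 and 364 in WT. The pairs of R342C and of WT were separate between media, those of Q418R and of K365T overlapped. The log2 difference over 4 lines was 0.76 ± 0.42 (SE) and did not pass with limma (adjusted p = 0.12), while it did with same-numbered libraries paired within each line (adjusted p = 0.0192). With 1 library left out it ran from 0.39 (without K365T no LIF replicate 1, adjusted p = 0.318) to 1.12 (without K365T no LIF replicate 2, 0.0083). It also passed without Q418R in LIF replicate 1 (1.002, 0.046) or Q418R no LIF replicate 2 (1.02, 0.0404), and it was 0.58 without WT in LIF replicate 2 (0.256). In Q418R alone the difference was 1.63 ± 0.84 (adjusted p = 0.126, and 0.0191 with the pairing). There it ran from 0.58 (adjusted p = 0.665) to 2.68 (0.0398) with 1 library left out.

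The JUN genes encode the partners of the FOS proteins, and both rose modestly. Jun (chr4:95049034-95052222, minus strand) had 696 and 1045 counts in R342C without LIF, 957 and 1030 in K365T, 1199 and 827 in Q418R and 831 and 710 in WT, against 397 and 306 in R342C in LIF, 1270 and 473 in K365T, 691 and 402 in Q418R and 488 and 337 in WT. The rise of 0.87 ± 0.19 (log2, SE; adjusted p = 0.000855, limma) was separate between the pairs of each line except K365T, where the LIF pair lay on both sides of the no LIF pair. In single lines it passed in R342C (1.28), where leaving out replicate 2 of either medium ended the call (adjusted p = 0.0878 and 0.105). With same-numbered libraries paired within the line it also passed in Q418R (0.91, adjusted p = 0.0192) and WT (0.92, 0.0181). Junb (chr8:84974484-84978718, minus strand) had 436 and 525 counts in R342C without LIF, 490 and 246 in K365T, 501 and 275 in Q418R and 503 and 396 in WT, against 274 and 248 in R342C in LIF, 323 and 483 in K365T, 243 and 141 in Q418R and 298 and 131 in WT. Its rise was 0.71 ± 0.20 (log2, SE; adjusted p = 0.00636, limma), and 1.16 in WT. There, leaving out LIF replicate 2 (0.58, adjusted p = 0.324), no LIF replicate 1 (0.99, 0.132) or no LIF replicate 2 (1.33, 0.0507) ended the call, as did testing without a filter (0.0608). With same-numbered libraries paired it also passed in R342C (0.87, adjusted p = 0.0279) and Q418R (0.99, 0.0149). Jun shares 689 bp with its antisense RNA gene Junos, which rose as well (49.2 and 22.9 mean counts without and with LIF, log2 1.06, adjusted p = 6.17e-05), and Junb shares 351 bp with Prdx2, which fell (log2 -0.31, adjusted p = 0.000268); reads from these overlaps cannot be told apart either.

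Ier2 and Ier3 encode proteins outside the EGR and AP-1 families, and IER3 is known for its links to cell survival. Ier2 (chr8:84661331-84662852, minus strand) varied least of the members without LIF, by 1.49 times, with 930 as the lowest, 1125 as the median and 1385 as the highest of 8 libraries, and 814, 1443 and 3234 counts in LIF. In K365T it had 1205 and 1119 counts without LIF and 2043 and 3234 in LIF, the LIF pair being the highest of all groups. Ier2 fell by 1.14 in K365T (adjusted p = 0.0106, limma) and by 0.40 ± 0.16 over the 4 lines (adjusted p = 0.0426). Without K365T in LIF replicate 2 neither difference passed (adjusted p = 0.123 in K365T and 0.114 over the 4 lines). The value over the 4 lines is at the threshold: it was lost without any 1 of 10 of the 16 libraries (adjusted p up to 0.12), without a filter (0.0768), with upper-quartile scaling (0.092) and with TPM (0.133). Ier3 (chr17:35821684-35822923, plus strand) had 74.0 and 101 counts in R342C without LIF, 63.2 and 33.1 in K365T, 89.0 and 65.2 in Q418R and 103 and 83.1 in WT. In LIF it had 117 and 136 counts in R342C, 54.2 and 51.3 in K365T, 58.4 and 52.8 in Q418R and 77.9 and 104 in WT. The means of K365T, 48.1 without LIF and 52.7 in LIF, were the lowest of the 8 groups.

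**Figure D2:**
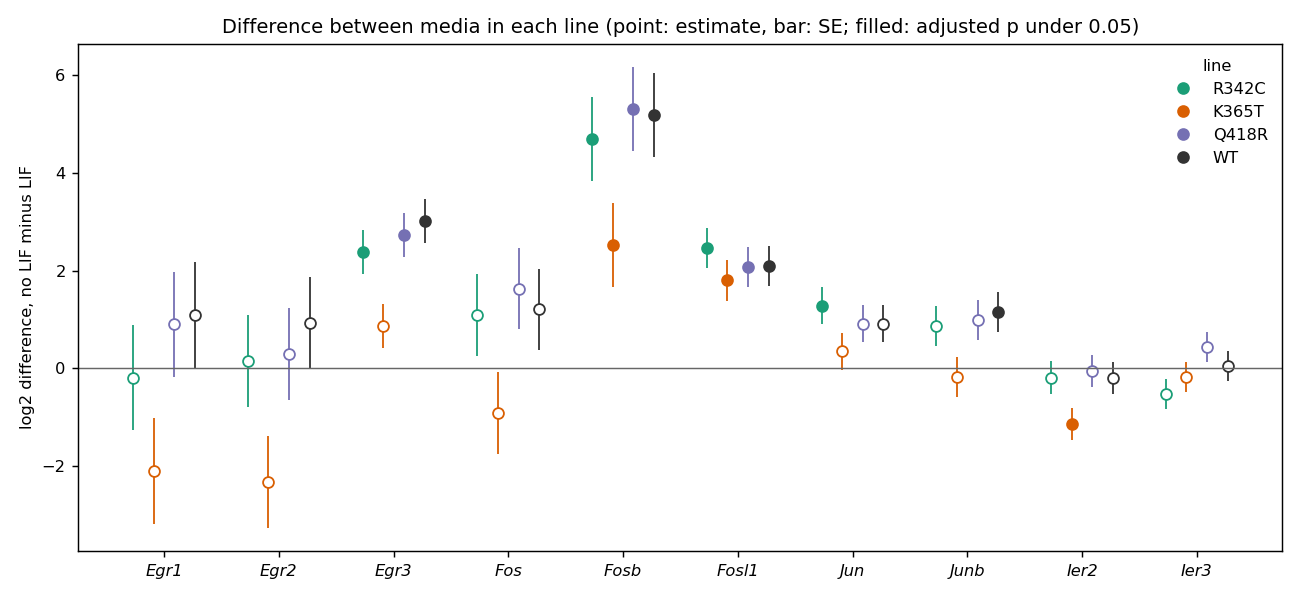
Log2 difference between no LIF and LIF (y axis) for each gene, with 1 point per line and its SE as the bar; filled points have an adjusted p under 0.05 (limma). Fosb and Fosl1 are filled in all 4 lines, whereas the K365T points of Egr1 and Egr2 lie near -2 and are open.

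Line by line, 4 of 10 members passed in R342C (47.2% of all genes did), 3 in K365T (44.7%), 3 in Q418R (46.5%) and 4 in WT (48.8%). Each of these shares is below or near the background and none is a result about the list. With same-numbered libraries paired within each line the counts were 5 in R342C, 6 in K365T, 6 in Q418R and 5 in WT, and in that fit 54% of all genes passed in R342C, 52.1% in K365T, 54% in Q418R and 56.3% in WT. Whether a mutant line responded otherwise than WT was tested as the difference of the 2 responses. No member passed in R342C, K365T or Q418R by limma, where 0%, 0.659% and 0.141% of all genes did. At an unadjusted p under 0.05 there were 0 members in R342C, 4 in K365T and 0 in Q418R. Of all 17757 genes, 288, 2082 and 1493 were under that unadjusted p. In each line edgeR called 0 members, where 0%, 0.597% and 0.113% of all genes passed. DESeq2 called 0, 1 and 0, where 0.0113%, 2.49% and 0.912% of all genes passed. In K365T all 10 estimates were below 0, with a median of -1.73 against -0.01 over all genes. They included Egr2 at -3.26 ± 1.32, Egr1 at -3.19 ± 1.52, Fosb at -2.65 ± 1.21 and Egr3 at -2.14 ± 0.64 (log2, SE; adjusted p = 0.343, 0.442, 0.415 and 0.162, limma). Egr3 was the member DESeq2 called (-3.21, adjusted p = 0.0499). Without WT in LIF replicate 2 the estimate was -0.78 for Egr1, -1.32 for Egr2, -2.71 for Fosb and -2.04 for Egr3, and without WT no LIF replicate 2 it was -3.24 for Egr1, -3.38 for Egr2, -2.01 for Fosb and -1.91 for Egr3. Fosb moved with the K365T libraries without LIF: it was -4.49 without replicate 1, which limma called (adjusted p = 0.0178), and -0.82 without replicate 2 (0.814). These estimates contain the K365T and WT libraries in LIF that the next comparison uses, and the 2 sets of values are not independent.

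In LIF, K365T held more Egr1, Egr2, Egr3 and Ier2 than WT. Egr1 had 6319 and 16898 counts in K365T and 4235 and 147 in WT, and Egr2 had 204 and 466 in K365T and 118 and 4.32 in WT. Egr3 had 19.9 and 33.9 in K365T and 3.11 and 2.16 in WT, and Ier2 had 2043 and 3234 in K365T and 1754 and 814 in WT. In each of these genes both K365T libraries lay above both WT libraries. With 2 libraries per group that order adds no support beyond the test, and the share of all genes with it is not given here. The log2 differences were 3.69 ± 1.08 for Egr1 (adjusted p = 0.0409), 3.30 ± 0.94 for Egr2 (0.0364), 2.18 ± 0.45 for Egr3 (0.00744) and 1.10 ± 0.33 for Ier2 (0.0437), all by limma. That made 4 of 10 members called, all higher, where 11.1% of all genes passed and 6.42% were higher. The others did not pass, among them Fos at 1.81 ± 0.84 (adjusted p = 0.19), Fosb at 1.81 ± 0.86 (0.204), Junb at 0.98 ± 0.41 (0.144) and Jun at 0.93 ± 0.38 (0.137).

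These calls rest on WT in LIF replicate 2 and on K365T in LIF replicate 2, since none of the 4 held without either library. Without the WT library none of the 10 passed by limma, and the differences were 1.29 for Egr1 (adjusted p = 0.392), 1.36 for Egr2 (0.363), 2.08 for Egr3 (0.0593) and 0.55 for Ier2 (0.398). Without K365T in LIF replicate 2 they were 2.98 for Egr1 (adjusted p = 0.247), 2.71 for Egr2 (0.226), 1.85 for Egr3 (0.08) and 0.77 for Ier2 (0.311), while Jun, not called with all libraries, passed (1.64, 0.021). Without K365T in LIF replicate 1 Egr3 and Ier2 passed, and Egr1 (4.401, adjusted p = 0.0705) and Egr2 (3.89, 0.0677) did not. Without WT in LIF replicate 1 all 4 passed, with Egr1 at 6.098 and Egr2 at 5.23. With only these 4 libraries in the fit 3 members passed, Egr3, Fos (1.81, adjusted p = 0.0344) and Fosb (1.81, 0.0127), and Egr1 (0.121), Egr2 (0.101) and Ier2 (0.0945) did not. In that fit 8.97% of all genes passed. With edgeR on the recovered reads 1 member passed, where 11.2% of all genes did. With DESeq2, which called 14% of all genes, 3 members passed, among them Jun (1.08, adjusted p = 0.0301) but neither Egr1 (2.41, 0.161) nor Egr2 (2.46, 0.137). Under TPM 1 member passed, where 7.78% of all genes did. There 1084 genes were higher and 298 lower in K365T, against 1140 higher and 828 lower on the normalised counts. The TPM scaling placed the median of all genes at 0.11 instead of -0.02. Of the 4 genes called, the Egr3 estimate stayed between 1.85 and 2.52 with any 1 of the 4 libraries left out.

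**Figure D3:**
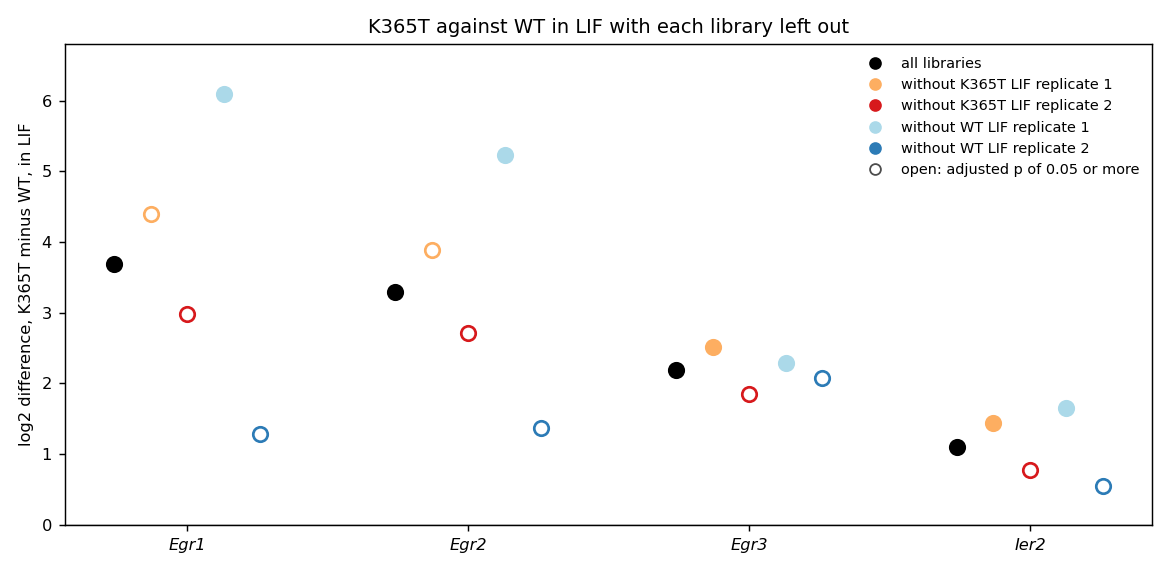
Log2 difference between K365T and WT in LIF (y axis) for the 4 genes called, with all libraries (black) and with 1 library left out (colours); open points have an adjusted p of 0.05 or more. Leaving out WT replicate 2 takes Egr1 to 1.29 and Egr2 to 1.36, while Egr3 stays near 2, and no point is filled without WT replicate 2 or without K365T replicate 2.

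No member passed in the other comparisons with WT by limma. In R342C 0 passed in LIF and 0 without LIF (0.417% and 0.479% of all genes did). The count was also 0 by edgeR (0.405% and 0.439%) and DESeq2 (0.856% and 0.794%). At an unadjusted p under 0.05 there were 0 members in either medium, and 1005 and 1006 of all 17757 genes. In Q418R 0 passed in LIF and 0 without LIF (4.25% and 6.15% of all genes). The count was again 0 by edgeR (3.85% and 5.93%) and DESeq2 (6.63% and 9.32%). At an unadjusted p under 0.05 there were 1 and 0 members, and 3093 and 4099 of all 17757 genes. In K365T without LIF 0 passed, where 14.7% of all genes did, and 0 by edgeR, where 14.6% did. At an unadjusted p under 0.05 there was 1 member, and 5250 of all 17757 genes. DESeq2 called 1 member, where 17.9% of all genes passed. That member was Ier3, with 63.2 and 33.1 counts in K365T and 103 and 83.1 in WT (-0.95 ± 0.31, adjusted p = 0.051 by limma and 0.0445 by DESeq2). Without K365T no LIF replicate 1, 2 members passed by limma, Ier3 among them (-1.38, adjusted p = 0.0133), and without K365T no LIF replicate 2 the Ier3 estimate was -0.52 (0.357). It was -1.11 without WT no LIF replicate 2 (adjusted p = 0.115). Without LIF the means of the 4 lines lay between 49.8 and 67.1 counts for Egr3, 49.3 and 71.3 for Fosl1 and 1049 and 1162 for Ier2.

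The spread between replicate libraries set Egr1, Egr2, Fos and Fosb apart from the other members. Their residual SD on the log2 scale, pooled over the 8 groups, was 1.43 for Egr1, 1.21 for Egr2, 1.13 for Fosb and 1.10 for Fos, which made them the 3rd, 10th, 18th and 20th most variable of 17757 genes. Junb (0.51), Egr3 (0.49), Jun (0.48), Fosl1 (0.44), Ier2 (0.42) and Ier3 (0.30) were lower, and all 10 pooled values were above the median of all genes, 0.24. Within a single medium this did not hold for Fosl1 (percentile 38.1) and Ier2 (47.4) without LIF or for Ier3 (45.6) in LIF. Among the 11799 genes with a mean of at least 100 counts, where counting error is small, Egr1 was the 2nd, Fosb the 8th and Fos the 9th most variable. The medium with the wide spread was not the same for all. Egr1 had a residual SD of 0.63 without LIF and 1.92 in LIF, and Egr2 0.70 and 1.56, whereas Fosb had 1.42 without LIF and 0.73 in LIF, and Fos 1.29 and 0.88. Single pairs weighed heavily in these values. The log2 gap of Fosb without LIF was 3.67 in K365T, and the next largest was 1.29 in WT. In LIF the gaps of Egr1 and Egr2 were 4.81 and 3.87 in WT, and the next largest were 2.03 and 1.68 in Q418R. The order of the media without those pairs was not tested.

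**Figure D4:**
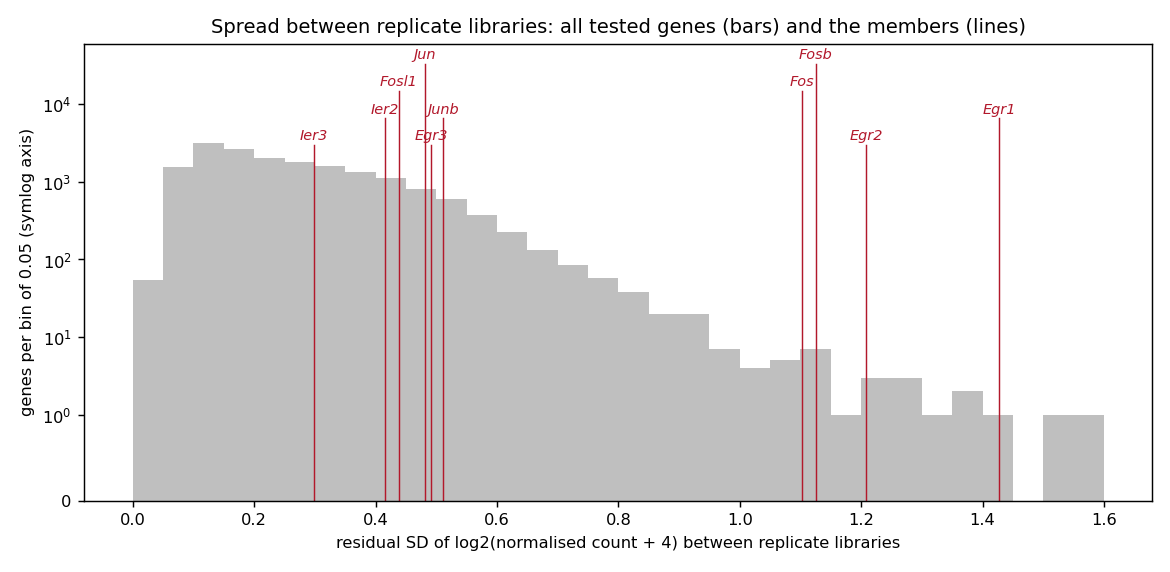
Number of genes (y axis, symlog) by residual SD of log2(normalised count + 4) between replicate libraries (x axis); bars are all 17757 tested genes and lines the 10 members. Egr1, Egr2, Fosb and Fos lie beyond 1.1, while the median of all genes is 0.24.

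The pairs that lay farthest apart were few. In WT in LIF replicate 1 exceeded replicate 2 by 28.8 times for Egr1 and 27.2 times for Egr2, by 2.66 times for Fos and 2.16 times for Ier2, while Fosb differed by 1.08 times. In K365T without LIF replicate 1 exceeded replicate 2 by 12.9 times for Fosb and 7.69 times for Fos, while Egr1 was 3.28 times lower there and Egr2 differed by 1.05 times. In Q418R replicate 1 exceeded replicate 2 for Fos by 4.31 times without LIF and 3.98 times in LIF, and for Egr1 by 4.10 times in LIF. A library high in one member was therefore often high in some others, but not in all.

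**Figure D5:**
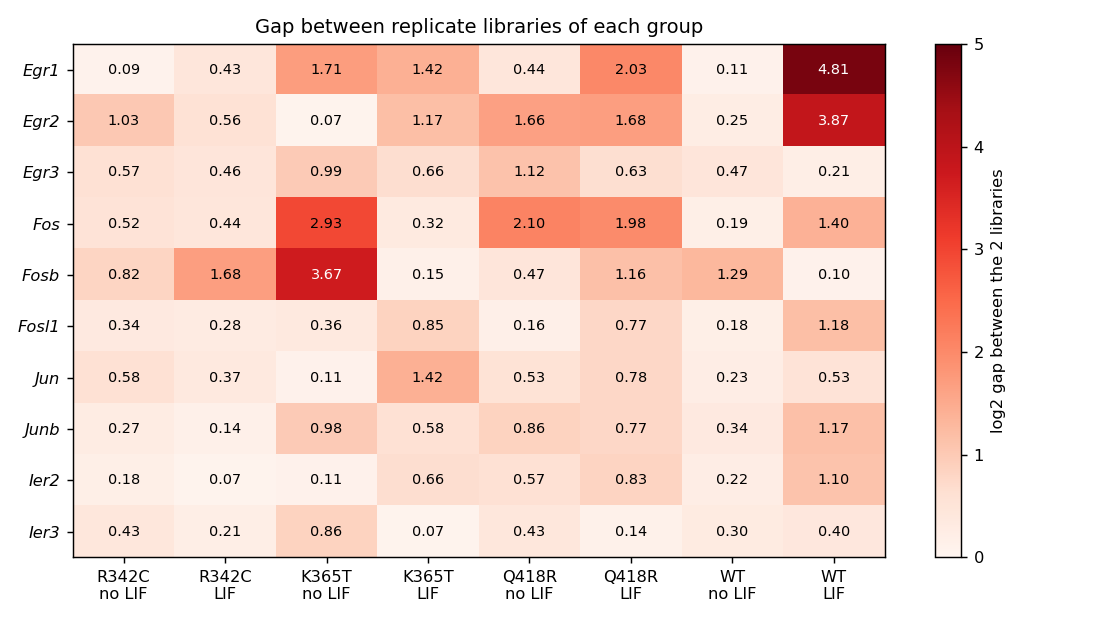
Absolute log2 gap between the 2 libraries of each group (colour and printed value) for the 10 genes (rows) and 8 groups (columns, no LIF left of LIF within a line). The largest gaps are those of Egr1 (4.81) and Egr2 (3.87) in WT in LIF and of Fosb (3.67) in K365T without LIF.

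Across the 16 libraries, levels were most alike for Egr1 and Egr2 among these members (Pearson r = 0.92), and the deviations from the group means for Fos and Junb (Pearson r = 0.90), Egr2 and Ier2 (0.90), Junb and Ier2 (0.89), Egr1 and Egr2 (0.87) and Egr1 and Ier2 (0.85). Of the 45 pairs of members, 36 had a positive r, with a median of 0.26. These are descriptions: the 2 deviations of a group mirror each other, so that 16 libraries give 8 gaps, and the genes share the library and its depth. Among 11172 genes, which are those with a mean of at least 100 other than 626 predicted, RIKEN or clone-named genes and the gene itself, the level of Egr1 was most like that of Ier2 (r = 0.83), Taf6l (0.78), Lacc1 (0.77), Actr6 (0.74) and Shcbp1 (0.72) over 16 libraries. The level of Fos was most like that of Junb (0.88), Zscan18 (0.80), Uqcrfs1 (0.79), Hexim1 (0.78) and Mir22hg (0.78). The deviations most like the mean deviation of the members included those of Ormdl1 (0.94), Hmgn2 (0.92), Anapc15 (0.92) and Afg3l1 (0.91).

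The cells were detached with the enzyme TrypLE and washed before lysis, and no time for this step is given. As a measured companion of the spread, 12 chaperone genes that can rise with heat or dissociation, Hsp90aa1 among them, summed to 213096 normalised counts in WT in LIF replicate 2, the lowest library in LIF, and to 265905 in replicate 1, the highest. Over the 8 pairs of libraries, the library higher in Egr1 also had the higher sum in 6, the exceptions being R342C in LIF, with sums of 236014 and 235694, and K365T without LIF, with 221303 and 220734. The same held in 8 of 8 pairs for Junb, 7 for Egr2, Fos and Ier2, 6 for Jun, 5 for Egr3 and Ier3 and 4 for Fosb and Fosl1. The share of all genes with as many such pairs is not given here. Abundant genes weigh most in the sum: Hsp90aa1 averaged 54245 normalised counts without LIF and 76690 in LIF, and Hspa1a 95.4 and 49.2. Of the 12 genes 2 were higher and 3 lower without LIF than in LIF over the 4 lines. The part of handling in the members' values was not tested.

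Other genes of the pathway were read from lists, and are given as counts of genes past the test in no LIF against LIF over the 4 lines, beside the background of 34.6% higher and 36.0% lower. Of 11 feedback genes of ERK, 9 were higher and 2 lower, with a median log2 difference of 0.97. They included Dusp4 (3681 mean counts without LIF and 135 in LIF, log2 4.77), Spry4 (2847 and 172, 4.07), Dusp6 (2717 and 309, 3.23) and Dusp5 (502 and 91.1, 2.41); DUSP proteins remove phosphate from MAP kinases and SPRY proteins restrain receptor signalling upstream. Of 35 further early response genes tested, 20 were higher and 8 lower, with Egr4 higher (60.3 and 10.9 mean counts, log2 2.25) and the pluripotency factors Klf4 (915 and 14033, -4.29) and Klf2 (1586 and 6026, -2.19) lower. Nab2, which binds EGR proteins and represses their activity, fell to 62.8 mean counts without LIF, against 579 in LIF (log2 -3.20), and its relative Nab1 did not pass.

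Of 14 possible partners of FOS and JUN proteins, 7 were higher, with Maf (104 mean counts without LIF and 14 in LIF) among them, and 4 were lower, with Batf2 (1.70 and 37.1) and Jdp2 (185 and 553) ahead. Of 9 SRF, ternary complex and CREB factors, 5 were higher, among them Srf (2673 and 1129, log2 1.25) and Elk1 (1160 and 805, 0.52), and 2 were lower, Crem (186 and 287) among them. Of 19 genes of the ERK cascade, 9 were higher, among them Mapk3, which encodes ERK1 (3270 and 1377), and 7 were lower, Ksr1 (610 and 1066) among them. Of 12 genes of the JNK and p38 cascades 5 were higher, Mapk10 (122 and 2.88) and Mapk12 (1295 and 97.0) ahead, and 5 lower, Map2k6 (191 and 834) among them. Dusp5, Srf, Atf3 and Maff are each in a pair of these lists.

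The same lists gave a different picture in K365T against WT in LIF, where Egr1, Egr2, Egr3 and Ier2 were higher and the background was 6.42% higher and 4.66% lower. Of the 11 feedback genes of ERK 0 were higher and 3 lower in limma, and Dusp6 was at 121 mean counts in K365T and 404 in WT (log2 -1.69 ± 0.22, adjusted p = 0.000396). Of the 35 further early response genes 2 were higher and 1 lower. Their median log2 difference was -0.02, which was also that of all genes, while the median of the 10 members was 1.46. These values are with all libraries. As given above, the calls of the members rest on WT in LIF replicate 2 and on K365T in LIF replicate 2. The lists are not given without those libraries. Egr4 had 22.0 mean counts in K365T and 8.30 in WT (log2 1.01 ± 0.40, adjusted p = 0.122). Of the 12 chaperone genes 1 was higher and 1 lower, and Hspb1 had 3057 mean counts in K365T and 5234 in WT (log2 -0.79 ± 0.19, adjusted p = 0.0155).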

How the data were processed

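Total RNA, depleted of ribosomal RNA, was sequenced from 16 libraries by the submitters, from 500 ng of RNA each with a stranded kit and 150 bp paired reads per the labels' protocols. Trim Galore, STAR, DESeq2 and mm10 are named in the submitters' processing notes; versions, the counting tool, its use of strand and the annotation are not given in the sources used here. The deposited main table holds a signal, the authors' normalised counts, scaled by 1 factor per library. All values of each library were whole multiples of 1 step (100% within a tolerance of 0.05; steps 0.779 to 1.19), so that whole reads were recovered. The authors' deposited TPM table served as an alternative and for comparing levels between genes.

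Log2(normalised count + 4) entered a linear model in limma 3.58.1 under R 4.3.3 (eBayes with trend), which had 8 group means and 8 residual degrees of freedom. Genes with a mean of at least 10 were tested, with Benjamini-Hochberg adjustment over all 17757 and a threshold of 0.05. A log2 difference on this scale understates the change of low genes. There were 14 contrasts: no LIF against LIF in each line and over their mean, each mutant against WT in each medium, and each mutant's response minus that of WT. Alternatives were edgeR 4.0.16 and DESeq2 1.42.0 on the recovered reads, TPM with a pseudocount of 0.1, upper-quartile scaling, a pseudocount of 1, no filter, a mean of at least 50, only the libraries compared, a replicate block, and leaving out each library; the block within each line was added after the data were seen. The fit was also run on simulated counts that had the same spread setting for all genes and changes only in genes with a mean of at least 100. That run cannot show how the fit performs for members with a wide spread or low counts.

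Same-numbered libraries of a line in the 2 media deviated together from their group means over genes (r = 0.27 in R342C, 0.271 in K365T, 0.295 in Q418R and 0.283 in WT). For same-numbered libraries of a mutant and WT, r ran from -0.387 (K365T without LIF) to 0.302 (Q418R without LIF). The values within a line therefore do not show that the numbers of the labels mark pairs. Fits with such pairs are given as an alternative only. Gene positions came from GENCODE M21 on mm10. All 10 members are named in the text. A few genes that the rules below would name are not reported here. Of other lists up to 4 genes are named, by size of change among those past the test over the 4 lines, as are the 5 genes most like Egr1, Fos and the mean deviation, leaving out predicted genes. The members and lists were chosen with earlier results of these data known. The share of structural RNA counts genes annotated as snRNA, snoRNA, scaRNA, misc_RNA, rRNA or ribozyme. No library was left out of the main results.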

Additional observations from a re-analysis of the deposited data

Results flagged for a closer look

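The estimates of Ier3 between the media had opposite signs in R342C and Q418R, and neither passed the test. In R342C both libraries without LIF, with 74.0 and 101 normalised counts, were below both in LIF, with 117 and 136 (log2 -0.53 ± 0.31 SE, adjusted p = 0.178, limma). In Q418R both libraries without LIF, with 89.0 and 65.2 counts, were above both in LIF, with 58.4 and 52.8 (log2 0.43 ± 0.31, adjusted p = 0.272). The difference between the 2 lines was not tested. The case was picked for its opposite signs, and the share of all genes with such pairs is not given here.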

How the results depend on the processing

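With genes of a mean of at least 50, which leaves out Egr3 and Fosl1 by construction, 2 were called in the response (no LIF against LIF) of R342C, 1 in Q418R and 2 in WT, and 1 in K365T against WT without LIF. Of all genes in that fit 50.1%, 48.3%, 51.8% and 19.2% passed. In Q418R 5 were called under upper-quartile scaling, TPM, only the libraries compared, DESeq2 and the replicate block. With the replicate block within each line 6 were called in K365T and 6 in Q418R, where 52.1% and 54% of all genes were. In K365T against WT in LIF 1 was called without a filter (4.4% of all genes passed), with TPM (7.78%) and with edgeR (11.2%). DESeq2 called 1 in K365T against WT without LIF (17.9% of all genes passed) and 1 in the K365T response minus the WT response (2.49%). With 1 library left out, the counts ran from 1 to 4 for the K365T response, 3 to 6 for Q418R, 3 to 6 for WT, 0 to 4 for K365T against WT in LIF, 0 to 2 for it without LIF, and 0 to 1 for the K365T response minus that of WT; the cause was not tested.

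Estimates that changed sign were not called in the reported fit. The WT response of Egr1 was -0.36 with edgeR and -0.35 with DESeq2, and that of Egr2 -0.132 and -0.091. Over the 4 lines Egr1 was 0.003 with upper-quartile scaling and 0.006 with TPM, and Ier3 0.011 and 0.015. With 1 library left out, the response ran from -2.37 to 0.56 for Fos in K365T, -0.11 to 1.92 for Egr1 in Q418R, -1.31 to 3.5 for Egr1 and -1.003 to 2.87 for Egr2 in WT, and over the 4 lines from -0.67 to 0.53 for Egr1, -0.72 to 0.25 for Egr2 and -0.167 to 0.048 for Ier3; Egr1 in R342C against WT in LIF ran from -0.89 to 3.93. The ends at -2.37, 3.5 and 2.87 passed the test. The pairing of same-numbered libraries within a line moved 9 estimates past the threshold, all given with the results, and no other call. Between mutant and WT libraries the numbers are only shared. In Q418R TPM called 60.4% of genes higher among those called, against 49.4%. Depth limits Egr3, Fosl1 and Egr2 in LIF, where libraries held as few as 2, 4 and 4 reads.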
